A study of Homo sapiens with 6 samples.

Results

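ADAMTS genes encode secreted metalloproteases that carry thrombospondin repeats. The account covers 7 of them, 6 proteases (ADAMTS1, ADAMTS4, ADAMTS5, ADAMTS6, ADAMTS9 and ADAMTS12) and the ADAMTS-like gene ADAMTSL1, out of the 19775 genes that had at least 1 probe set to themselves. Every probe set that the array annotation assigns to 1 of these symbols alone was taken, 22 of the 54675 in the table. The list was selected on the difference between bevacizumab and control arrays, since it was drawn up after ADAMTS5 and ADAMTS1 had been seen to be higher after bevacizumab, so the difference between the groups is given for these genes as a description, without a test.

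RNA came from subcutaneous xenografts of U87-EV, a form of the established human glioblastoma line U87; what EV stands for is not given in the labels. Both groups were grown with Matrigel in female BALB/c SCID mice, which lack working B and T cells and were 6 to 8 weeks old at implantation. From a tumour volume of 150 to 200 mm3, the 3 bevacizumab tumours had an intraperitoneal injection of 10 mg/kg every 3 days, and the 3 control tumours had saline, until they were about 15 to 30 mm across. Bevacizumab is an antibody to human vascular endothelial growth factor A. Each group started with 5 mice, and the labels do not say that each of the 3 arrays came from a separate mouse, so the spread behind each p-value is that of the arrays and may hold technical error. The samples are bulk tumour, 1 array each, in which fewer cells of a type and less RNA per cell cannot be told apart. Host and tumour RNA were not separated. The probe sets are for human genes, so mouse host RNA adds to a value only as far as it binds them, which was not tested.

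An ADAMTS protease is made with a propeptide that proprotein convertases such as furin remove, and its thrombospondin repeats bind matrix and cell surfaces. ADAMTS1, ADAMTS4, ADAMTS5 and ADAMTS9 cut the large proteoglycans that bind hyaluronan, among them aggrecan, versican and the brain's brevican, and ADAMTS1 was also described as an inhibitor of new vessel growth. TIMP3 is their main tissue inhibitor, and the endocytic receptor LRP1 clears ADAMTS4 and ADAMTS5 from the matrix. ADAMTSL1 has the repeats but no protease domain.

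Values are the deposited expression values on the log2 scale, where a difference of 1 is 2-fold and 2.23 is the lowest value in the table. Of the 7 genes, 5 had a mean of at least 4 over the 6 arrays on their brightest probe set and entered the fit over 10233 genes. ADAMTS4 and ADAMTS9 were at or next to the lowest value and did not. Of the 22 probe sets 12 had a mean of at least 4.

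**Figure D1:**
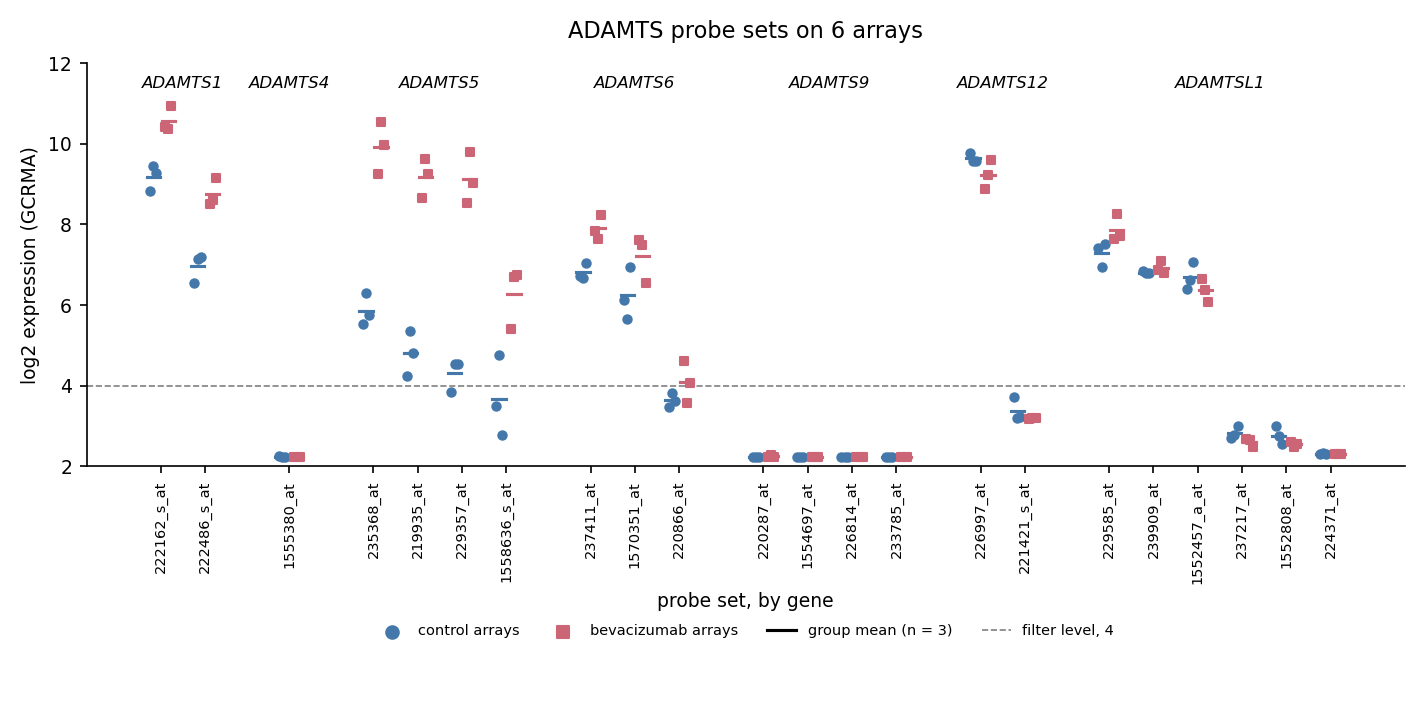
Log2 expression (vertical axis) of the 22 probe sets of the 7 genes (horizontal axis), with circles for the 3 control arrays, squares for the 3 bevacizumab arrays, short lines for group means and a dashed line at 4. All 4 probe sets of ADAMTS5 and both of ADAMTS1 have their bevacizumab arrays above every control, and those of ADAMTS4 and ADAMTS9 lie between 2.23 and 2.27.

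The protease ADAMTS5, a major aggrecan-cutting enzyme of cartilage, had the widest separation. Its brightest probe set, 235368_at, read 5.52, 6.29 and 5.76 on controls 1 to 3 and 9.26, 10.54 and 9.97 on bevacizumab 1 to 3. The lowest bevacizumab array stood 2.97 above the highest control. The group means were 5.86 ± 0.40 and 9.92 ± 0.64 (SD, n = 3 each), a difference of 4.06 (SE 0.36), or 16.7-fold. Here and below each SE is the moderated one of limma, which borrows spread from all tested genes. It therefore does not follow from the printed SDs alone.

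The other 3 probe sets of ADAMTS5 lay in the same direction. Probe set 219935_at read 4.24, 5.35 and 4.82 in controls against 8.65, 9.64 and 9.25 after bevacizumab, a difference of 4.37. Probe set 229357_at read 3.84, 4.55 and 4.53 against 8.54, 9.79 and 9.03, a difference of 4.81. In these 2, as in the brightest, bevacizumab 2 was the highest array and bevacizumab 1 the lowest of its group. Probe set 1558636_s_at, with 2 controls under 4, read 3.49, 4.75 and 2.78 against 5.40, 6.69 and 6.75. Its difference was 2.60 as deposited and 2.03 with values under 4 set to 4, so the size varied with the probe set while the order of the groups did not.

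ADAMTS1 was next, and the 2 genes are neighbours, with no other protein-coding gene between them on chromosome 21 in the RefSeq gene table. Its brightest probe set, 222162_s_at, read 8.82, 9.45 and 9.28 in controls and 10.42, 10.36 and 10.94 after bevacizumab. The groups did not overlap, with 0.91 between the highest control and the lowest bevacizumab array. The means of 9.18 ± 0.32 and 10.57 ± 0.32 (SD, n = 3 each) differed by 1.39 (SE 0.22), or 2.62-fold.

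On the second ADAMTS1 probe set, 222486_s_at, the arrays read 6.55, 7.13 and 7.20 in controls and 8.51, 8.61 and 9.15 after bevacizumab, a difference of 1.80. Control 1 was the lowest array and bevacizumab 3 the highest on both ADAMTS1 probe sets. The highest bevacizumab array was therefore number 3 for ADAMTS1 and number 2 for 3 of the 4 ADAMTS5 probe sets.

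ADAMTS6, a family member related to ADAMTS10, was also higher on its brightest probe set. Probe set 237411_at read 6.72, 6.68 and 7.03 in controls and 7.85, 7.64 and 8.24 after bevacizumab, without overlap. The difference was 1.10 (SE 0.18), or 2.14-fold. A second one, 1570351_at, read 6.14, 5.65 and 6.94 against 7.61, 7.48 and 6.55, a mean difference of 0.97 with overlapping groups. Bevacizumab 3 was the highest array on the first and the lowest bevacizumab array on the second. The third, 220866_at, stayed between 3.47 and 3.81 in controls and ran from 3.56 to 4.62 after bevacizumab.

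ADAMTS12, which with ADAMTS7 cuts the cartilage protein COMP, did not share this direction. Its bright probe set, 226997_at, read 9.78, 9.59 and 9.58 in controls and 8.88, 9.22 and 9.59 after bevacizumab. Bevacizumab 3 was level with the controls, so the groups overlapped. The means were 9.65 ± 0.11 and 9.23 ± 0.35 (SD, n = 3 each), a difference of -0.42 (SE 0.19). Its dim probe set, 221421_s_at, was under 4 on all arrays.

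ADAMTSL1 gave different answers on its 3 bright probe sets. Probe set 229585_at read 7.42, 6.94 and 7.51 in controls and 7.64, 8.25 and 7.70 after bevacizumab, a difference of 0.58 (SE 0.22) with a gap of only 0.14 between the groups. Probe set 239909_at differed by 0.11 and 1552457_a_at by -0.34, both with overlapping groups. On the last the arrays read 6.40, 6.63 and 7.08 in controls and 6.65, 6.37 and 6.06 after bevacizumab. The other 3 probe sets were under 4 on all arrays, and the mean over all 6 of its probe sets differed by -0.013, so no single direction describes this gene.

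ADAMTS4, an aggrecan-cutting enzyme like ADAMTS5, read 2.26 on control 1 and 2.23 on the other 5 arrays with its only probe set. ADAMTS9, which cuts versican, read 2.23 on all arrays with 3 of its 4 probe sets, and 2.27 on bevacizumab 2 and 2.23 on the other arrays with the fourth. Values this low have no order, so no fold is given for either gene.

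On the brightest probe sets the bevacizumab arrays lay above all controls for 4 of the 5 genes tested and below all controls for none. Over all tested genes the groups were separated upward in 19.0%, downward in 22.0% and in either direction in 41.0%. By probe set the counts were 8 above and 0 below of the 12 with a mean of at least 4, against 18.3% and 20.7% of all such probe sets. The genes were listed with these differences known, so nothing is read from these counts.

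**Figure D2:**
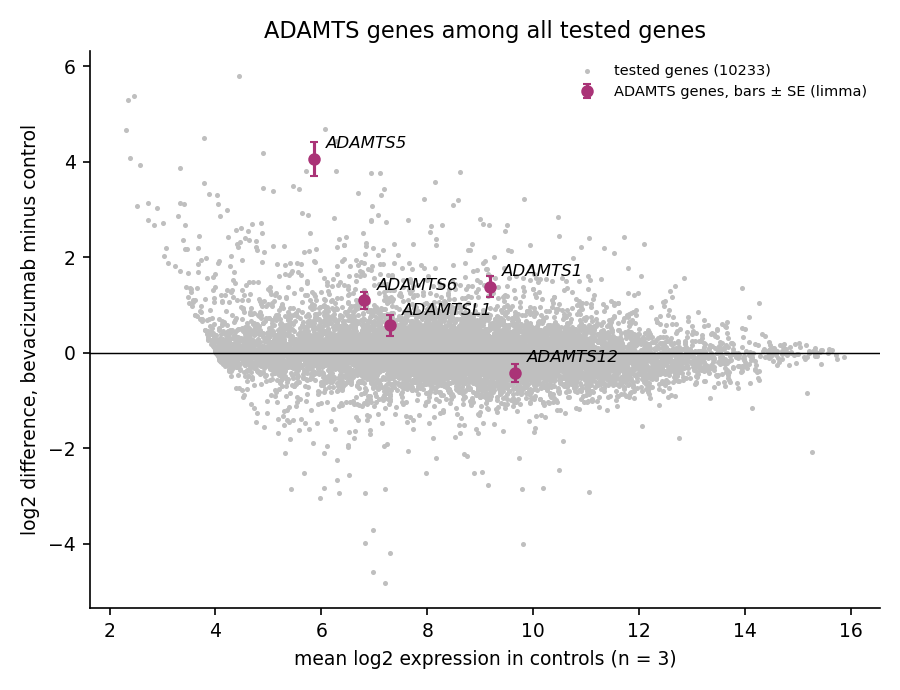
Difference between the group means (vertical axis, log2, bevacizumab minus control) against the mean log2 expression in controls (horizontal axis) for the 10233 tested genes in grey, with the 5 tested ADAMTS genes marked and bars of 1 SE. ADAMTS5 stands at 4.06, ADAMTS1 and ADAMTS6 at 1.39 and 1.10, ADAMTSL1 at 0.58 and ADAMTS12 at -0.42.

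The rest of the family was mostly dark on these arrays. Of 18 further ADAMTS, ADAMTS-like, papilin and THSD4 genes with a probe set, 14 were under 4 on all 6 arrays. ADAMTS13 reached 4.01 on 1 array, PAPLN 4.24 and THSD4 4.10. Only ADAMTS14, which trims procollagen ends, was bright enough to test. It read 6.36, 6.41 and 6.41 in controls and 6.38, 6.45 and 7.30 after bevacizumab, a difference of 0.32 (SE 0.25, limma adjusted p = 0.40) that rested on bevacizumab 3. It was the only 1 tested of the 12 other ADAMTS proteases with a probe set, so none passed by limma and 0 had an unadjusted p under 0.05; ADAMTS7 had no probe set analysed here.

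Promoter sequence was matched for 3 of the 7 genes, ADAMTS6, ADAMTS12 and ADAMTSL1. Those of ADAMTS6 and ADAMTS12 are shown because the means of their brightest probe sets differed in opposite directions, though the ADAMTS12 groups overlapped. No link between the letters below and these differences was tested. They run from 250 bases before the transcript start to 10 bases from it, from RefSeq (GRCh38.p14), for ADAMTS6 at chr5:65481911-65482170 and for ADAMTS12 at chr5:33891981-33892240, both on the minus strand. Capitals mark matches, on either strand, to ACGTG or GCGTG (the core that hypoxia-inducible factors recognise), to TGANTCA (an AP-1 site) or to TGACGTCA (the cyclic AMP response element).
ADAMTS6: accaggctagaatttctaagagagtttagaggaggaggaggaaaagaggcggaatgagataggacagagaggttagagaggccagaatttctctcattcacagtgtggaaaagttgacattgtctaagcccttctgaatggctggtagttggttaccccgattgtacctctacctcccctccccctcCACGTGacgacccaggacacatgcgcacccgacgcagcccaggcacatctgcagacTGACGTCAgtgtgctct
ADAMTS12: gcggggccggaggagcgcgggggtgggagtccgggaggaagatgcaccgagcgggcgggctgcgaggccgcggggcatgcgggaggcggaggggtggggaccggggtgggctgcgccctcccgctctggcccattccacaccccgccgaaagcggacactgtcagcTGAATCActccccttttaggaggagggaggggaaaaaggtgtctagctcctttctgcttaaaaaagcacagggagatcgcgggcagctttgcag

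The ADAMTS6 stretch holds ACGTG on each strand, overlapping as CACGTG from base 63 before the start, and TGACGTCA from base 7 before it. The ADAMTS12 stretch holds TGAATCA from base 84 before its start. Among all 35116 RefSeq promoters of this length, ACGTG or GCGTG occurs in 44.2%, TGANTCA in 6.92% and TGACGTCA in 1.8%. The ADAMTSL1 stretch has none of these letters. A match is a run of letters and says nothing of binding.

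The RNA of genes for proteins that ADAMTS enzymes cut or bind changed in both directions. Of 20 such matrix genes 15 were tested, 6 rose and 4 fell, and the median difference was 0.26. By limma 19.1% of all tested genes passed an adjusted p of 0.05, 9.09% higher and 9.97% lower, with a median of -0.01. The microfibril genes FBN1 (fibrillin) and LTBP1 (a latent TGF-beta binding protein) rose by 0.86 (SE 0.09, limma adjusted p = 0.00463) and 0.62 (SE 0.09, adjusted p = 0.00933). SDC4, the cell surface proteoglycan syndecan 4, which binds ADAMTS4 and ADAMTS5, rose by 0.81 (SE 0.09, adjusted p = 0.00559). SEMA3C, a guidance factor that ADAMTS1 can cut, rose by 0.59 (SE 0.09, adjusted p = 0.0112).

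The 4 that fell included THBS1, encoding thrombospondin 1, an ADAMTS1 substrate that restrains vessels. It read 10.98, 10.23 and 10.61 in controls and 9.61, 9.13 and 9.30 after bevacizumab, a fall of 1.26 (SE 0.22, limma adjusted p = 0.0156). Of its 7 probe sets 5 were lower, a count made without regard to their level. The basement membrane gene NID1 fell by 1.69, COL3A1 by 0.84 and TFPI2, an extracellular protease inhibitor, by 0.54. These 3 were picked out once their values were known. Counted in the same way, 2 of 3 NID1 probe sets, 5 of 5 of COL3A1 and 2 of 2 of TFPI2 were lower. The matrix genes past the threshold numbered 4 without control 1, 4 without control 2, 6 without control 3 and 5 without bevacizumab 2. THBS1 lost its call without control 1, control 3 or bevacizumab 2, and SEMA3C without control 2.

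The hyaluronan-binding proteoglycans themselves were represented by versican. VCAN read 12.95, 13.06 and 12.98 in controls and 13.21, 13.23 and 13.01 after bevacizumab, a difference of 0.15 (SE 0.09, limma adjusted p = 0.29) with overlapping groups. Brevican (BCAN) read 2.29 on all 6 arrays, neurocan (NCAN) 2.23, and aggrecan (ACAN) stayed between 3.73 and 3.83. Of 12 proteoglycan, link protein, hyaluronan synthase and hyaluronan receptor genes 3 were tested, and none passed by limma, against 19.1% of all tested genes. The hyaluronan synthase gene HAS2, picked out once its value was known, was the 1 with an unadjusted limma p under 0.05. It differed by 0.88 (SE 0.34, limma adjusted p = 0.12) with overlapping groups. The median of the 3 was 0.15, the value of VCAN.

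Regulators of the enzymes were higher where they passed. Of 13 genes for inhibition, clearance, activation and sugar attachment 11 were tested, 5 rose and none fell, and the median was 0.36. Over all tested genes 9.09% passed higher and 9.97% lower. TIMP3 read 11.68, 11.60 and 11.28 in controls and 12.28, 12.99 and 12.28 after bevacizumab, a rise of 1.00 (SE 0.23, limma adjusted p = 0.0312) with 4 of 4 probe sets in that direction. LRP1 rose by 1.00 (SE 0.20, adjusted p = 0.0234) on its brightest probe set. Only 2 of its 4 probe sets were higher, a count made without regard to their level. The mean over all 4 rose by 0.54 (SE 0.11, limma adjusted p = 0.0231). PCSK5, a proprotein convertase, rose by 1.84 (SE 0.32, adjusted p = 0.0156).

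POFUT2, which adds fucose to thrombospondin repeats before secretion, rose by 0.83 (SE 0.16, limma adjusted p = 0.0215) on its brightest probe set. Of its 4 probe sets 2 were higher, but the mean over all 4 was under the filter level, so the others were dim. Their direction is not read. TIMP1, picked out once its value was known, rose by 0.36. FURIN did not pass, with a difference of -0.37 (SE 0.18, adjusted p = 0.20). These calls were the least stable, with 0, 0 and 1 genes past the threshold without control 1, 2 or 3 and 3 without bevacizumab 3. TIMP3 and LRP1 lost theirs without any 1 of the controls, PCSK5 without control 1 or 2, and POFUT2 without any 1 of the controls or bevacizumab 3.

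Among the membrane-bound ADAM proteases 1 of 8 tested rose and none fell, with a median of 0.13. That is 12.5%, against 19.1% of all tested genes that passed in either direction. ADAM8 read 5.26, 5.01 and 6.08 in controls and 7.25, 6.94 and 7.28 after bevacizumab, a rise of 1.71 (SE 0.28, limma adjusted p = 0.0136). It lost its call without control 1 or 2, and without control 3 there were 2 ADAM genes past the threshold. Of cytokines known to induce ADAMTS genes in other cells 4 of 6 were tested, and 1 of the 4 rose and none fell. IL6 rose by 4.44 (SE 0.58, limma adjusted p = 0.0074), while IL1A and TGFB1 had differences of 0.06 and 0.15 with overlapping groups. The median of 1.36 lies between these and the higher pair, near no gene. IL1B, a known inducer of ADAMTS1, read 4.46, 4.23 and 5.13 in controls and 8.55, 5.50 and 7.46 after bevacizumab, a difference of 2.56 (SE 0.75, adjusted p = 0.0633) that did not pass. Without bevacizumab 2 there were 2 cytokine genes past the threshold.

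**Figure D3:**
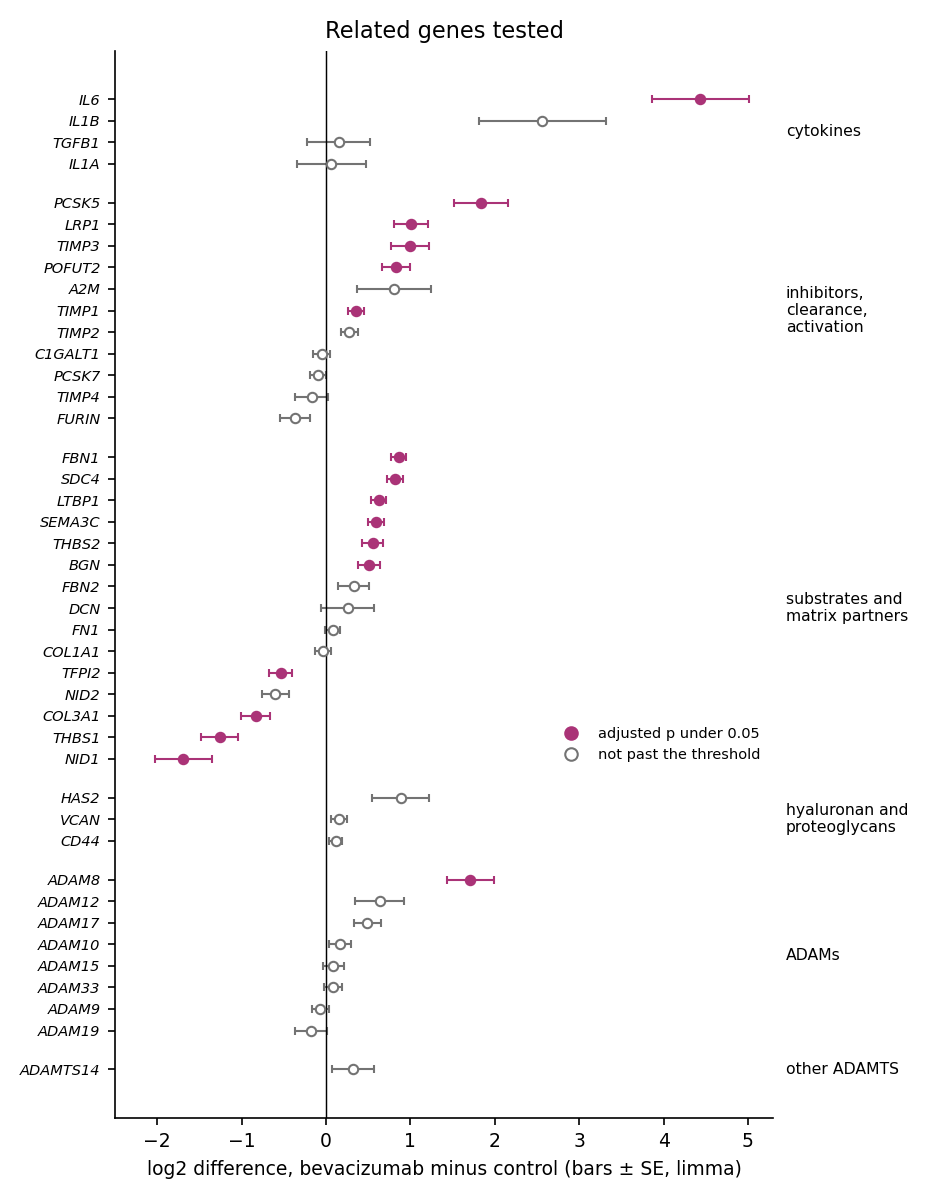
Log2 difference, bevacizumab minus control (horizontal axis, bars of 1 SE), for the 42 related genes tested (vertical axis, by list), filled where the limma adjusted p was under 0.05 and open otherwise. The filled points are 13 genes that rose and 4 that fell, and those that fell are all matrix genes.

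Genes were also ranked by how closely their values followed ADAMTS5 or ADAMTS1 over the 6 arrays, as the root mean square difference after each gene's own mean was taken off. For ADAMTS5 the 5 closest of the tested genes were ZNF395 (0.36), MAP3K8 (0.36, with all controls under 4), TNFRSF11B (0.38), EFEMP1 (0.41) and SLC6A8 (0.45). For ADAMTS1 they were NFKBIA (0.12), PARP8 (0.14), HIVEP2 (0.14), DHCR7 (0.14) and DDIT3 (0.14). NFKBIA, the inhibitor of NF-kB, read 10.53, 10.97 and 10.71 in controls and 11.89, 11.66 and 12.48 after bevacizumab, so that control 1 was lowest and bevacizumab 3 highest, as for ADAMTS1. EFEMP1, a fibulin, read 6.63, 7.34 and 7.58 in controls and 9.87, 11.36 and 10.60 after bevacizumab. Bevacizumab 2 was highest, as for ADAMTS5, but the highest control was control 3 for EFEMP1 and control 2 for ADAMTS5. The distance includes the difference between the groups, on which ADAMTS5 and ADAMTS1 were selected, so genes with a difference of like size rank high. These are descriptions of 6 arrays and carry no test.

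**Figure D4:**
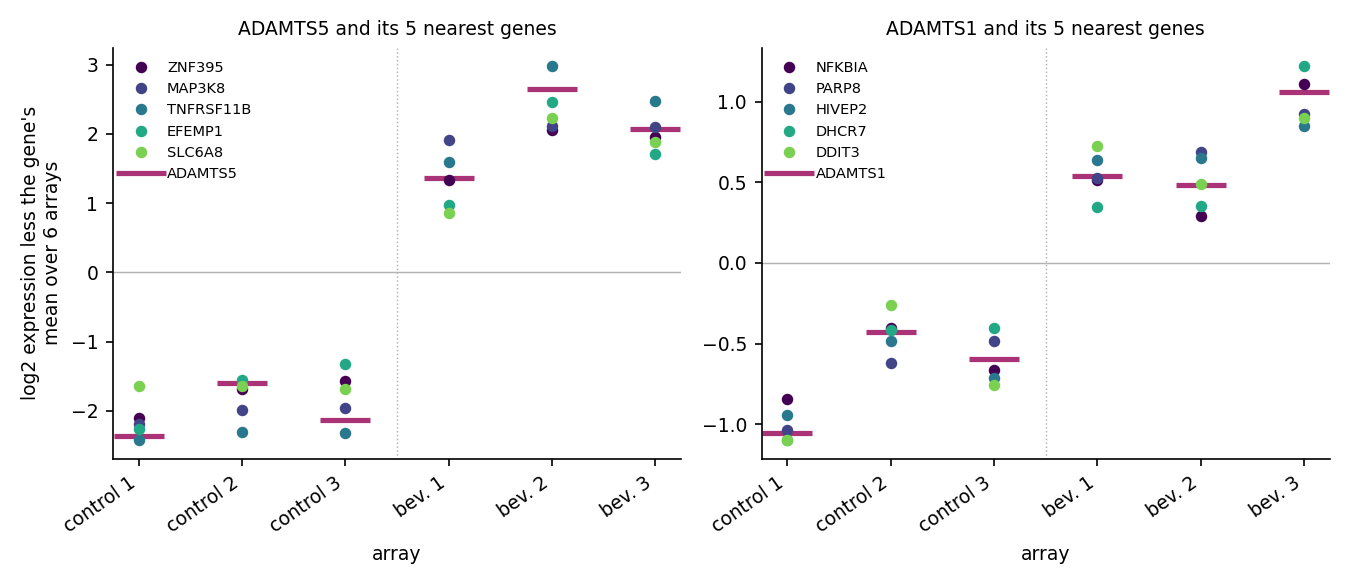
Log2 expression less each gene's mean over the 6 arrays (vertical axis) by array (horizontal axis) for ADAMTS5 (left) and ADAMTS1 (right), drawn as bars, and for the 5 genes closest to each, drawn as dots. The ADAMTS1 bar is highest on bevacizumab 3 and the ADAMTS5 bar on bevacizumab 2.

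Some other measures were separated between the groups, and others overlapped. For ACTB the 3' probe set exceeded the 5' one, a sign of RNA quality, by 1.38 ± 0.26 on control arrays and by 1.81 ± 0.16 on bevacizumab arrays (log2, SD, n = 3 each; two-sided exact permutation p = 0.2, smallest possible 0.1). For GAPDH the same measure was -0.116 ± 0.017 on control arrays and -0.021 ± 0.034 on bevacizumab arrays (log2, SD, n = 3 each), and the groups did not overlap (exact permutation, two-sided, p = 0.1, as low as 3 against 3 can give). With the ACTB measure as a covariate ADAMTS5 differed by 4.14, ADAMTS1 by 1.37, ADAMTS6 by 1.07, ADAMTSL1 by 0.43 and ADAMTS12 by -0.061, and none of the related genes passed. The related genes that are given above with an SE and passed kept their direction, with larger SEs. With the covariate LRP1 differed by 1.19 (SE 0.33), TIMP3 by 1.18 (SE 0.38), FBN1 by 0.94 (SE 0.14) and THBS1 by -1.17 (SE 0.38). ADAM8 went from 1.71 to 1.20 (SE 0.39) and IL6 from 4.44 to 3.43 (SE 0.82). Of 7 glioma line markers 4 were tested. VIM and CD44 were above 13.9 on all arrays and did not pass, CHI3L1 rose by 1.60 (limma adjusted p = 0.0174) and NES fell by 1.18 (adjusted p = 0.00725). GFAP and OLIG2 were under 4 on all arrays, and SOX2 had a mean under 4. Of 6 mural cell markers 5 were bright, their summed signal (log2 of the linear sum) was 13.06 to 13.40 in controls and 11.79 to 11.97 after bevacizumab, and DES was under 4. ACTA2, the brightest of them, fell by 1.79 and RGS5 fell by 2.85 (limma adjusted p = 0.00407 and 0.0022). At any level, 2 of 3 ACTA2 and 6 of 6 RGS5 probe sets were lower. PDGFRB, CSPG4 and NOTCH3 did not pass, with differences of 0.30, 0.16 and -0.51. The summed signal of the 7 glioma line markers was 15.69 to 15.74 in controls and 15.84 to 15.98 after bevacizumab. For 6 fibroblast markers it was 16.57 to 16.75 and 16.28 to 16.56. Of these only COL3A1 passed, lower by 0.84 (limma adjusted p = 0.0258). The others differed by -0.62 (LUM), -0.03 (COL1A1), 0.17 (COL1A2), 0.17 (PDGFRA) and 0.26 (DCN). For 6 endothelial markers the sum was 7.22 to 7.33 and 7.26 to 7.53, with CDH5, KDR, TIE1 and VWF under 4 throughout. For 5 measured macrophage markers it was 5.84 to 6.02 and 5.78 to 5.84, with CD14, CD163, CSF1R and PTPRC under 4. Because the probe sets are for human genes, a low marker value does not show that mouse host cells of that type were few. The part of these cells in the ADAMTS values was not tested.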

How the data were processed

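The deposited log2 values were made by the authors with GCOS 1.1.1.052 and GCRMA (version not given), per the submitters' processing notes; GCRMA uses probe sequence to remove background, then scales the arrays to each other and gives 1 value per probe set. The log2 scale was inferred from the values and from GCRMA's usual output, and no scanner files or batches were analysed here. Array medians were 2.49 to 2.51, and the number of arrays limits the precision. Symbols came from the platform annotation, updated by gene identifier.

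Each gene was represented by its brightest probe set (by the mean of 6 arrays), and genes with a mean of at least 4 were tested with limma 3.58.1 in R 4.3.3 (lmFit, eBayes, no covariate, two-sided, Benjamini-Hochberg adjustment over 10233 genes, threshold 0.05). The fit was tested on simulated data. The genes, lists and alternatives were chosen with earlier results of these data known. Named were the 7 genes, up to 4 genes a list with the smallest p past the threshold and no overlap, VCAN, BCAN, TIMP3, LRP1, FURIN and THBS1, and the 5 closest patterns to ADAMTS1 and ADAMTS5. ADAMTS14, NCAN, ACAN, IL1A, IL1B, TGFB1 and the genes said to be picked out in the text were added after their values were seen. Replicate numbers were not treated as pairs in this fit.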

Additional observations from a re-analysis of the deposited data

How the results depend on the processing

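The differences of ADAMTS5, ADAMTS1 and ADAMTS6 kept their direction under all alternatives tried, and ADAMTSL1 under all but 1. ADAMTS12 kept its negative sign, but with the ACTB covariate its difference was smaller than its SE. Leaving out 1 array gave 3.76 to 4.39 for ADAMTS5, 1.20 to 1.52 for ADAMTS1, 0.93 to 1.24 for ADAMTS6, 0.38 to 0.69 for ADAMTSL1 and -0.60 to -0.25 for ADAMTS12. With the probe set of smallest p ADAMTS5 differed by 4.81 and ADAMTS1 by 1.80. With the mean of all probe sets ADAMTS6 differed by 0.84 and ADAMTSL1 by -0.013, and with the ACTB covariate ADAMTS12 differed by -0.061 (SE 0.25). The causes were not tested.

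All genes past the threshold numbered 1950, and 598 without the filter on dim genes, 24 with the ACTB covariate and 558 to 2074 with 1 array left out. With the replicate block there were 904, 568 higher and 336 lower, and 1 hyaluronan and proteoglycan gene passed (none without it). Over all tested genes, same-numbered arrays deviated from their group means with correlations of -0.05, -0.01 and -0.05. Such averages over all genes cannot decide whether the arrays were paired. Under the block the SE was 0.15 for ADAMTS5 (0.36 without it), 0.19 for ADAMTS1 (0.22) and 0.11 for ADAMTS6 (0.18). It was 0.20 for ADAMTS12 (0.19) and 0.27 for ADAMTSL1 (0.22).

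Without the filter 4 matrix genes and 0 regulators, ADAM or cytokine genes passed, and with the ACTB covariate 0 of each, with larger SEs; there FBN1 differed by 0.94 (0.86 without it), LRP1 by 1.19 (1.00), TIMP3 by 1.18 (1.00) and IL6 by 3.43 (4.44). With the mean of all probe sets 3 regulators, 2 ADAM and 2 cytokine genes passed, with array weights 2 ADAM genes, and with quantile normalization again or arrays centred on bright probe sets 2 cytokine genes. Leaving out 1 array gave 4 to 8 matrix genes, 0 to 4 regulators, 0 to 2 ADAM genes and 1 to 2 cytokine genes. FURIN turned to 0.085 with the ACTB covariate.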
